A study of Rattus norvegicus with 6 samples.

Results

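The hypoxia-inducible factor (HIF) system was examined in rat atrial fibroblasts through 10 genes named by function, with earlier results of these data known. They are the HIF subunits Hif1a, Epas1 and Arnt, the oxygen-dependent hydroxylases Egln1, Egln2, Egln3 and Hif1an, the ubiquitin ligase subunit Vhl, and the HIF target genes Vegfa and Adm. All 10 were found among the 40154 genes of the count table, and all 10 passed the filter on low counts that left 14852 genes to test. Poly(A) RNA was sequenced from fibroblasts of Sprague-Dawley rats 1 to 3 days old, which had been separated from atrial myocytes by letting non-myocytes attach for 1.5 h and grown in medium with 10% serum. The cells received a control siRNA (si-NC, 3 libraries) or an siRNA against the glycerol-3-phosphate dehydrogenase 1-like gene (si-GPD1L, 3 libraries) for 24 h, and the study used this pair to look for pathways downstream of GPD1L. Every library also carries the treatment label "Atrial differentiation", which is not explained further. The digit in the library names was read as a replicate number. Nothing states whether the libraries came from separate cultures or animals, or whether the si-GPD1L digits mark different siRNAs, so the p-values measure the spread between these libraries, which may be technical.

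As background, HIF is a pair of proteins, an oxygen-regulated alpha subunit (HIF-1alpha from Hif1a or HIF-2alpha from Epas1) and the constitutive partner ARNT. With oxygen and 2-oxoglutarate present, the EGLN enzymes hydroxylate prolines of the alpha subunit, VHL binds the hydroxylated protein, and it is ubiquitinated and degraded. HIF1AN hydroxylates an asparagine and so keeps the coactivators p300 and CBP away. This control acts on protein, so mRNA levels show the supply of each component and, through target genes, the output of the pathway, but neither hydroxylation nor HIF-alpha protein was measured here. GPD1L has been linked to HIF prolyl hydroxylation in other cells, which is why these genes were looked at together.

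HIF binds DNA at a short core that reads ACGTG or GCGTG. RefSeq promoter windows of the GRCr8 assembly, from 250 bases before to 50 bases after each gene's start, were searched for both cores on both strands, and all 10 genes had at least 1 window (11 in all, 2 of them for Vegfa). A core was found in 3 of the 11 windows (27.3%), those of Hif1a, Egln1 and Arnt, against 59.0% of the 11769 windows of genes tested and 41.6% of all 33469 windows. Among 40 windows of other HIF target genes, 33 (82.5%) held a core. The ACGTG form alone was in 18.2% of the member windows, 24.0% of windows of genes tested, 19.3% of all windows and 62.5% of target gene windows. The matches of these 3 genes that lie before the start together with their flanking bases come first. They are followed by 1 match each for Ankrd37, Cited2 and Cxcl12, 3 genes of the HIF lists described further on. Each sequence is 29 bases, read 5′ to 3′ on the gene's strand, with the core in capitals (for Cxcl12 the capitals are GCGTG on the opposite strand).
Hif1a, chr6:98359658-98359686, plus strand, core from 228 bases before the start: acacagacgagcACGTGagctgggcagct
Hif1a, chr6:98359722-98359750, plus strand, core from 164 bases before the start: tggctgagagcaACGTGggctggggtggg
Egln1, chr19:69804721-69804749, minus strand, core from 56 bases before the start: gcccggcccgccGCGTGcgcgcggccccc
Arnt, chr2:185686649-185686677, plus strand, core from 42 bases before the start: ccatggtatgggGCGTGtcttctccccca
Ankrd37, chr16:53001473-53001501, plus strand, core from 22 bases before the start: gttccgggctacACGTGtcactgtttggg
Cited2, chr1:14132132-14132160, plus strand, core from 159 bases before the start: cagccgctgcgcACGTGcagcgcggactc
Cxcl12, chr4:152060700-152060728, plus strand, core from 69 bases before the start: ccacacttcagaCACGCcccttgacgagc
The first Hif1a match, the Ankrd37 match and the Cited2 match form CACGTG, which reads the same on both strands and was counted on each. Egln1 has a further match, an ACGTG, which is not shown because its 29 bases do not all lie in the part of the window before the start. No core was found in the windows of Epas1, Egln2, Egln3, Hif1an, Vhl, Vegfa or Adm. A match is a description of the letters and not a binding site, and a window without one says nothing about HIF, since many of its sites lie farther from the start.

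Library totals in the count table ran from 16892255 to 20149732, and the normalization factors were between 0.99 and 1.01. Gpd1l (NCBI gene 363159, chr8:122957570-122987236, minus strand), the siRNA target, had normalized counts (counts scaled to the mean library size) of 262, 332 and 313 in si-NC and 220.3, 208 and 302 in si-GPD1L. The library si-GPD1L replicate 3 lay inside the si-NC range, so the groups overlapped. The fitted log2 fold change of Gpd1l was -0.31 ± 0.15 (SE), or 80.5% of si-NC with a 95% interval of 64.5% to 100.5%, and its adjusted p was 0.234. Leaving out that library gave Gpd1l a log2 fold change of -0.50 and an adjusted p of 0.0733. Of the 24 interferon-stimulated genes tested, 24 rose, all by more than 1 on the log2 scale, and their summed level went from 195 to 204 TPM (a read count divided by gene length and scaled to 1 common sum, so that genes can be compared) in si-NC to 1959 to 2444 TPM in si-GPD1L, with Bst2 the most abundant. Of 12 fibroblast markers, led by Col1a1, 3 fell (Dcn, Lum and Fbln1), with summed levels of 29549 to 39808 TPM in si-NC and 36610 to 40004 TPM in si-GPD1L. Their median log2 fold change was -0.19, with 10 below 0 and 2 above. The sum was mostly Col1a1 and Col3a1, which moved in opposite directions. Their mean levels were 16846 and 14768 TPM in si-NC and 21126 and 13005 TPM in si-GPD1L. Among markers of other cells, 4 of 11 endothelial markers tested rose (Pecam1, Cdh5, Tie1 and Plvap, with Flt1 the most abundant of the list), 0 of 12 macrophage markers (led by Lyz2) passed, 1 of 12 cardiomyocyte markers fell (Pln, with Nppa the most abundant), and 2 of 10 smooth muscle and pericyte markers (led by Mcam) rose and 1 fell. Summed levels in si-NC and si-GPD1L were 42.8 to 55.4 and 67.8 to 75.9 TPM for the endothelial list, 225 to 259.9 and 212 to 309 TPM for the macrophage list, 3072 to 3226 and 2854 to 3037 TPM for the cardiomyocyte list, and 666 to 773 and 742 to 803 TPM for the smooth muscle and pericyte list. Beside these counts, 4.03% of all genes tested rose and 2.33% fell by the same rule, which is given in the next paragraph. None of the listed markers was at 0 in all 6 libraries. The part of these other cells, of the interferon genes and of the remaining Gpd1l mRNA in the results below was not tested, and in bulk RNA fewer cells of a type and less RNA per cell cannot be told apart.

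None of the 10 genes of the HIF system passed the test of si-GPD1L against si-NC. A gene was called when its adjusted p (Benjamini-Hochberg over all genes tested) was under 0.05 in edgeR's quasi-likelihood test. The members called numbered 0 of 10, against 6.36% of all genes tested, or 945 genes, with 4.03% higher and 2.33% lower in si-GPD1L. With a log2 fold change over 1 in either direction as well, 1.62% of all genes passed. Members with an unadjusted p under 0.05 also numbered 0 of 10, against 22.4% of all genes, and both DESeq2's Wald test and edgeR's exact test called 0. The fitted log2 fold changes of the 10 genes ran from -0.15 for Egln2 to 0.20 for Epas1, with a median of -0.03 beside -0.00 over all genes tested, and 7 of 10 lay inside the band that held the middle 50% of all genes (-0.15 to 0.15). Over the 10 genes, the 95% intervals of the si-GPD1L level spanned 80.3% to 134% of si-NC, so the fit allowed changes up to those sizes and none of the intervals reached a doubling. Without si-GPD1L replicate 3, the library with the most Gpd1l of its group, 0 of 10 were called and the fitted changes ran from -0.16 to 0.18.

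**Figure D1:**
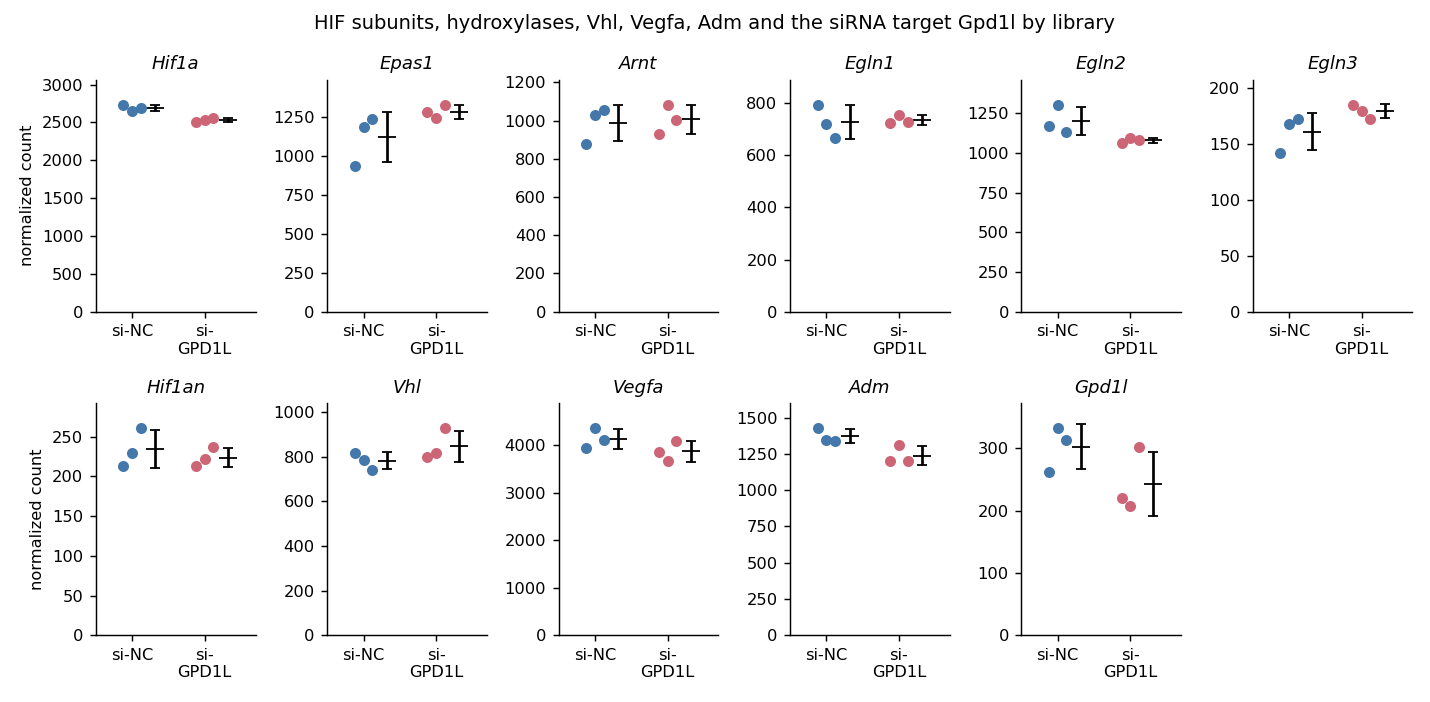
Normalized counts (vertical axes, each from 0) of the 10 genes and of Gpd1l in the 3 si-NC (blue) and 3 si-GPD1L (red) libraries, with the mean and SD of each group in black beside the points. Hif1a is the tightest pair of groups, with si-NC at 2653 to 2735 and si-GPD1L at 2510 to 2556, while the lowest Epas1 library is si-NC replicate 1 at 935.

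The alpha subunit Hif1a (NCBI gene 29560, chr6:96810868-96856303, plus strand) gave normalized counts of 2735, 2653 and 2688 in si-NC and 2510, 2525 and 2556 in si-GPD1L. All si-GPD1L libraries lay below all si-NC libraries, but the distance was small, with means of 2692 ± 41.1 and 2531 ± 23.7 (SD, n = 3 each). Its fitted log2 fold change was -0.09 ± 0.06 (SE), or 94.0% of si-NC (95% interval 85.4% to 103%), with an adjusted p of 0.439. Epas1 (NCBI gene 29452, chr6:10306508-10385239, plus strand), which encodes the alpha subunit best known from endothelium, gave 935, 1183 and 1237 normalized counts in si-NC and 1280.1, 1238 and 1327 in si-GPD1L. The groups only just failed to overlap, since the highest si-NC library and the lowest si-GPD1L library differed by little more than 1 normalized count, and si-NC replicate 1 stood well below the other si-NC libraries. Epas1 had the largest fitted change of the 10 genes, a log2 fold change of 0.20 ± 0.10 (SE), or 115% of si-NC (95% interval 99.02% to 133%), and an adjusted p of 0.257. Without si-NC replicate 1 its log2 fold change was 0.08, with an adjusted p of 0.474. The endothelial markers moved in the same direction as Epas1, at the summed levels given above, and their part in its values was not tested.

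Arnt (NCBI gene 25242, chr2:196594178-196651486, plus strand), the partner that both alpha subunits need to bind DNA, gave 879, 1029.6 and 1054 normalized counts in si-NC and 931, 1083 and 1004 in si-GPD1L. The groups overlapped over most of their range, at 988 ± 94.8 and 1006 ± 76.2 (SD, n = 3 each). The fitted log2 fold change of Arnt was 0.03 ± 0.09 (SE), or 102% of si-NC (95% interval 89.2% to 117%), with an adjusted p of 0.887. The sign of so small a value depended on the libraries used, and it was -0.05 without si-NC replicate 1.

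Of the prolyl hydroxylases, Egln1 (also known as PHD2, NCBI gene 308913, chr19:57660194-57701158, minus strand), usually the main brake on HIF-1alpha in normal oxygen, gave 795, 722 and 668 normalized counts in si-NC and 725, 756 and 727 in si-GPD1L. Its si-GPD1L libraries all lay within the si-NC range. The fitted log2 fold change was 0.02 ± 0.08 (SE), or 101% of si-NC (95% interval 89.1% to 115%), the smallest of the 10, with an adjusted p of 0.937. Egln2 (PHD1, NCBI gene 308457, chr1:83969456-83977665, minus strand) gave 1168, 1306 and 1135 normalized counts in si-NC and 1061, 1097 and 1082 in si-GPD1L. All 3 si-GPD1L libraries lay below the si-NC libraries, at 1203 ± 90.6 and 1080.03 ± 18.2 (SD, n = 3 each). Its log2 fold change of -0.15 ± 0.07 (SE), or 89.8% of si-NC (95% interval 80.3% to 100.5%), had the smallest adjusted p of the 10 genes, 0.246. Without si-NC replicate 2, the highest library, the log2 fold change of Egln2 was -0.09, with an adjusted p of 0.546. Egln2 overlaps Cyp2t1 on the opposite strand, which had 54 to 76 counts per library, and without a stated strand setting reads of the overlap cannot be assigned with certainty.

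Egln3 (PHD3, NCBI gene 54702, chr6:75050329-75075795, minus strand), a hydroxylase that is itself a HIF target in many cells, was the rarest of the 10. It gave 142, 168 and 172.8 normalized counts in si-NC and 185, 180.0 and 172.7 in si-GPD1L. The groups met at their edges, and si-NC replicate 1 was again the lowest library. The log2 fold change of Egln3 was 0.15 ± 0.12 (SE), or 111% of si-NC (95% interval 92.3% to 134%), with an adjusted p of 0.502, and it was 0.07 without si-NC replicate 1, with an adjusted p of 0.804. The asparaginyl hydroxylase Hif1an (also called FIH, NCBI gene 309434, chr1:264309214-264319269, plus strand) gave 214, 229.6 and 261 normalized counts in si-NC and 213, 222 and 237 in si-GPD1L. These ranges overlapped, and the log2 fold change was -0.07 ± 0.11 (SE), or 95.3% of si-NC (95% interval 80.3% to 113%), with an adjusted p of 0.771. Without si-NC replicate 3, the highest library, it was 0.01.

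Vhl (NCBI gene 24874, chr4:145580869-145587835, plus strand), the substrate-binding part of the ligase that marks hydroxylated HIF-alpha for degradation, gave 819, 786 and 742 normalized counts in si-NC and 799, 817 and 927 in si-GPD1L. The highest value, si-GPD1L replicate 3, stood apart from the other 5, which overlapped. The fitted log2 fold change of Vhl was 0.12 ± 0.08 (SE), or 108% of si-NC (95% interval 95.7% to 123%), with an adjusted p of 0.438, and it was 0.04 without that library.

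The HIF targets of the group code for secreted proteins, and neither was higher in si-GPD1L. Vegfa (vascular endothelial growth factor A, NCBI gene 83785, chr9:17340341-17355681, plus strand) gave 3932, 4356 and 4116 normalized counts in si-NC and 3848, 3668 and 4091 in si-GPD1L. The groups overlapped, at 4135 ± 212 and 3869 ± 212 (SD, n = 3 each), and the log2 fold change was -0.10 ± 0.07 (SE), or 93.6% of si-NC (95% interval 83.8% to 105%), with an adjusted p of 0.477. It was -0.06 without si-NC replicate 2 or without si-GPD1L replicate 2. Adm (adrenomedullin, a vasodilator peptide, NCBI gene 25026, chr1:175443189-175447260, plus strand) gave 1426, 1344 and 1340.1 normalized counts in si-NC and 1198, 1312 and 1203 in si-GPD1L. Its si-GPD1L libraries lay below its si-NC libraries, though the nearest pair differed by little next to the spread within the groups. The log2 fold change of Adm was -0.15 ± 0.07 (SE), or 90.4% of si-NC (95% interval 81.2% to 100.6%), with an adjusted p of 0.249.

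**Figure D2:**
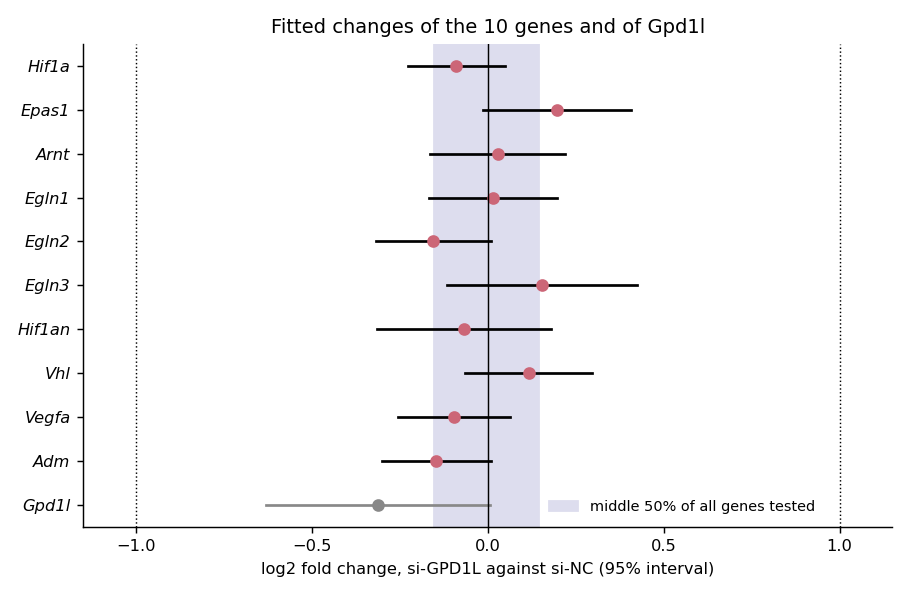
Fitted log2 fold changes (horizontal axis, si-GPD1L against si-NC) of the 10 genes (red points) and of Gpd1l (grey) with 95% intervals, the shaded band marking the middle 50% of all genes tested and the dotted lines a log2 fold change of 1 in each direction. The interval of each gene shown crosses 0, and the 10 red points lie between -0.15 and 0.20.

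By normalized counts, 4 of the 10 genes (40%) had groups that did not overlap, against 29% of all genes tested. The higher gene was Epas1, against 15.1% of all genes, and the lower genes were Hif1a, Egln2 and Adm, against 13.9%. On the TPM scale the list was another one. There Epas1, Egln1, Egln3 and Vhl were separate and higher in si-GPD1L, while Hif1a, Egln2 and Adm overlapped, against 30.7% of all genes separate, 23% higher and 7.64% lower. The median log2 difference of all genes tested was 0.08 in TPM and -0.00 in normalized counts, so the TPM scale was shifted between the groups. The si-NC libraries were not alike in this. In si-NC replicate 1 Hif1a had its highest normalized count of all libraries, 2735, and its lowest TPM, 76.0. With the TPM shift subtracted, Hif1a was at -0.08, Egln2 at -0.15, Adm at -0.14 and Epas1 at 0.19 on the log2 scale. Only the Epas1 groups failed to overlap on both scales.

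Levels of different genes were compared in TPM. In si-NC, Vegfa had the highest level, at 134 ± 12.2 TPM (SD, n = 3), followed by Hif1a at 79.1 ± 2.92 and Egln2 at 68.6 ± 6.62 TPM. The libraries of these neighbours in the order did not overlap. Adm at 60.1 ± 0.871, Epas1 at 52.7 ± 9.87, Arnt at 40.3 ± 5.69 and Vhl at 35.6 ± 0.812 TPM came next. Neighbours within this run, from Adm to Vhl, overlapped in their library values, while Vhl lay above Egln1 without overlap. Egln1 at 23.4 ± 1.01 and Hif1an at 22.5 ± 3.24 TPM could not be ordered either, and Egln3 was lowest, at 7.34 ± 1.08 TPM. In si-GPD1L the order was the same except that Epas1, at 63.6 ± 2.15 TPM, stood above Adm, at 57.6 ± 3.25 TPM. There the neighbours that overlapped were Egln2 (65.2 ± 1.48 TPM) with Epas1, and Arnt (43.4 ± 3.53 TPM) with Vhl (40.96 ± 3.45 TPM). The other levels in si-GPD1L were 133 ± 7.21 TPM for Vegfa, 78.8 ± 1.07 for Hif1a, 25.1 ± 0.719 for Egln1, 22.6 ± 1.31 for Hif1an and 8.63 ± 0.276 for Egln3 (SD, n = 3 each).

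**Figure D3:**
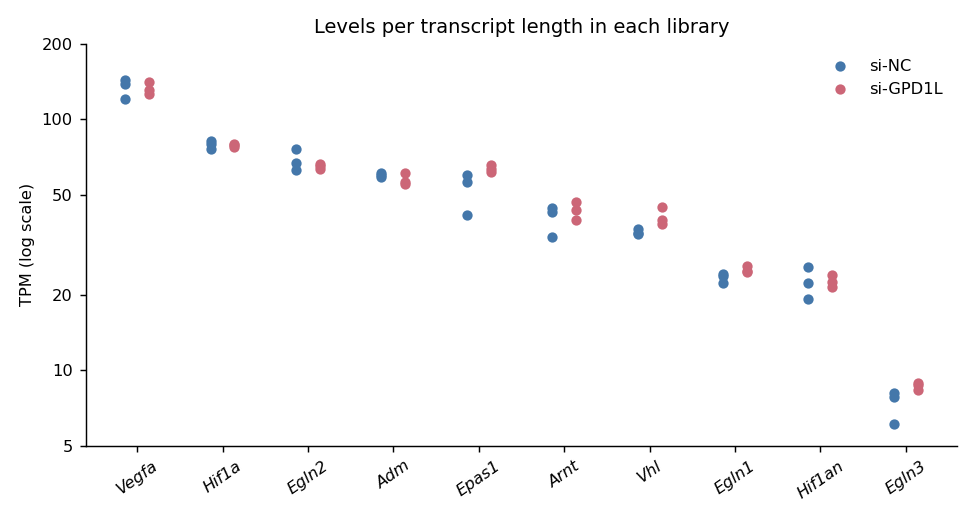
Level of each gene in TPM (vertical axis, log scale) in the 3 si-NC (blue) and 3 si-GPD1L (red) libraries, with genes ordered by their si-NC mean. Vegfa is highest at 134 TPM and Egln3 lowest at 7.34 TPM in si-NC, and the group means differ most for Epas1, at 52.7 and 63.6 TPM.

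Ratios between members were taken in TPM as a description, after the values had been seen and with no test. The level of Epas1 relative to Hif1a was 0.545, 0.711 and 0.734 in si-NC and 0.813, 0.782 and 0.828 in si-GPD1L. The groups did not overlap, si-NC replicate 1 was the lowest again, and Hif1a remained the more abundant alpha subunit in all 6 libraries. Arnt relative to both alpha subunits together was 0.305 ± 0.0148 in si-NC and 0.305 ± 0.0258 in si-GPD1L (SD, n = 3 each). Within the summed EGLN level, Egln2 made up 67.5%, 70.7% and 68.8% in si-NC and 65.5%, 65.8% and 66.4% in si-GPD1L. Egln2 was thus the most abundant EGLN mRNA in each library, with its share lower in the 3 si-GPD1L libraries. Egln1 held 23.7% ± 2.06 of the summed EGLN level in si-NC and 25.4% ± 0.223 in si-GPD1L, and Egln3 held 7.38% ± 0.900 and 8.72% ± 0.359 (SD, n = 3 each).

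The genes whose pattern over the 6 libraries was most like that of each alpha subunit were found by the root-mean-square difference of centred log2 normalized counts, among the 11882 genes that averaged 50 or more normalized counts. For Hif1a these were Aftph (0.0114), Tmem64 (0.0127) and Pttg1ip (0.0131), where the median over all genes compared was 0.139. For Epas1 they were Zfp646 (0.0229), Foxj2 (0.0258) and Exoc8 (0.0259), with a median of 0.211. Such likeness describes these 6 libraries only.

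The transcript table lists 34 transcripts of the 10 genes, all of which were tested. Transcripts called at an adjusted p under 0.05 numbered 0 of 34, against 5.89% of all 37822 transcripts tested. Their fitted log2 fold changes ran from -0.17 to 0.18, and the lowest adjusted p was 0.192, for a transcript of Adm. Isoforms were not resolved by these counts. Of the 13 Vegfa transcripts, only 8 patterns of counts were distinct, and each transcript held between 62.6% and 94.0% of the gene's counts, so the same reads were counted for several isoforms. The same held for the 5 transcripts of Hif1a (89.2% to 99.6% of the gene's counts), the 6 of Arnt (61.0% to 100%), the 3 of Egln2 (87.3% to 94.2%) and the 2 of Adm (98.0% to 100%). Epas1, Egln1, Egln3, Hif1an and Vhl are listed with 1 transcript each.

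Further parts of the HIF machinery were read from a list of 23 genes that holds other subunits, the elongin and cullin parts of the VHL ligase, coactivators, chaperones, and modifying enzymes. Of these, 22 were tested, 0 rose and 1 fell, which is 4.55% called against 6.36% of all genes. Hif3a, a further alpha subunit gene, had 1 to 9 counts per library and was not tested. The list's median log2 fold change was -0.06, with a range of -0.40 to 0.31, and 7 of 22 (31.8%) had groups that did not overlap, against 29% of all genes. The gene that fell was Cited2, whose protein competes with HIF-alpha for p300 and CBP and is itself induced by HIF. Cited2 had normalized counts of 2556, 2132 and 1936 in si-NC and 1644, 1697 and 1686 in si-GPD1L. The si-GPD1L libraries lay close together below a wide si-NC range, at 1676 ± 27.8 against 2208 ± 317 (SD, n = 3 each). Its log2 fold change was -0.40 ± 0.09 (SE), or 75.9% of si-NC (95% interval 66.0% to 87.3%), with an adjusted p of 0.0254. That call depended on 4 of the libraries. The adjusted p of Cited2 was 0.0615 without si-NC replicate 2, and it was 0.126, 0.118 and 0.0849 when si-GPD1L replicate 1, 2 or 3 was left out. It was also lost with summed transcript counts, at 0.0578.

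The other ligase parts did not pass. Tceb1 (elongin C) had a log2 fold change of -0.37 (adjusted p = 0.166), Rbx1, the ring subunit, -0.17 (adjusted p = 0.196), Cul2, the scaffold, -0.12 (adjusted p = 0.379) and Tceb2 (elongin B) -0.09 (adjusted p = 0.655). Groups did not overlap for Tceb1, Cul2 and Rbx1, which were lower in si-GPD1L in 3 of 3 libraries, and overlapped for Tceb2. Tceb1 had 880, 584 and 570 normalized counts in si-NC and 538, 474 and 567 in si-GPD1L. Its groups thus only just failed to overlap, and si-NC replicate 1 stood well above all other libraries. Of all genes tested, 13.9% had groups that did not overlap and were lower in si-GPD1L. The coactivator genes Crebbp and Ep300 had log2 fold changes of 0.31 (adjusted p = 0.13) and 0.19 (adjusted p = 0.332). For both, si-NC replicate 1 was the lowest library, at 1180 and 1575 normalized counts, and the Crebbp groups overlapped. These ligase and coactivator genes were named after their values had been seen. The most abundant genes of the list were Hsp90ab1, a chaperone of HIF-alpha, at a log2 fold change of 0.04 (adjusted p = 0.787), Rack1, which competes with it, at -0.14 (adjusted p = 0.353), and Os9, an endoplasmic reticulum lectin reported to bind HIF-1alpha, at 0.04 (adjusted p = 0.796). Hsp90aa1 reached only 62.3 normalized counts and has near-identical copies in the genome, so its value is uncertain.

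**Figure D4:**
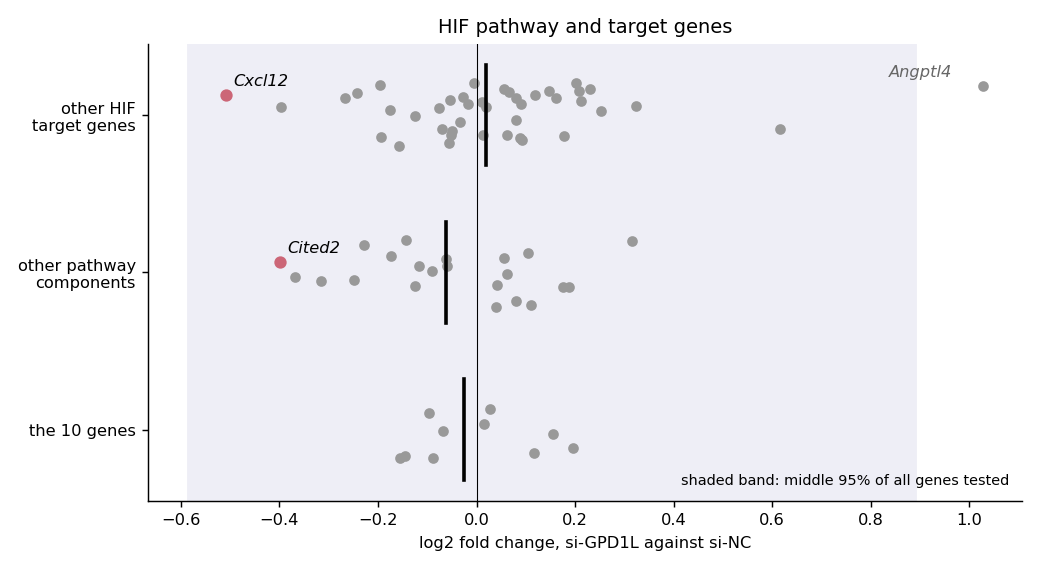
Fitted log2 fold changes (horizontal axis) of the 10 genes, of 22 other pathway components and of other HIF target genes (1 of the 43 tested is not drawn), 1 point per gene, with red points called at an adjusted p under 0.05, black bars at the list medians and a band over the middle 95% of all genes tested (-0.59 to 0.89). The called genes drawn are Cited2 (-0.40) and Cxcl12 (-0.51), and the uncalled point past the band is Angptl4 (1.03).

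A list of 45 other HIF target genes was read in the same way, to set Vegfa and Adm beside more of the pathway's output. Of these, 43 were tested, and Epo and Slc2a3 were not, at 0 to 3 and 7 to 10 counts per library. Neither direction prevailed, since 1 rose, 1 fell, 24 fitted changes were above 0 and 19 below, and the median log2 fold change was 0.02, beside -0.00 for all genes. The share called was 4.65%, against 6.36% of all genes, and 13 of 43 (30.2%) had groups that did not overlap, 9 higher and 4 lower in si-GPD1L, against 29% of all genes, 15.1% higher and 13.9% lower. Cxcl12, a chemokine of stromal cells, had 2970.2, 2848 and 3024 normalized counts in si-NC and 1817, 2186 and 2210.1 in si-GPD1L. It fell in 3 of 3 libraries, by 0.51 ± 0.08 (SE) on the log2 scale, to 70.3% of si-NC (95% interval 62.1% to 79.6%), with an adjusted p of 0.0028.

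The other glycolytic and classical hypoxia targets did not pass. Eno1 (enolase), among the most abundant of the list, had 12906 ± 433 normalized counts in si-NC and 15131 ± 658 in si-GPD1L (SD, n = 3 each). Its groups did not overlap, the log2 fold change was 0.23 ± 0.07 (SE), and the adjusted p of 0.0854 missed the threshold, though it passed without si-NC replicate 1 (0.00318) and in DESeq2's Wald test (0.0347). Plod2 (a collagen lysyl hydroxylase) was at 0.06, with an adjusted p of 0.699. Ankrd37, a small gene that responds strongly to HIF in many cells, was scarce, with 19.8, 30.7 and 16.6 normalized counts in si-NC and 22.9, 15.5 and 28.0 in si-GPD1L. At this depth no difference of Ankrd37 was detectable, and its interval ran from 58.8% to 166% of si-NC (log2 fold change -0.02 ± 0.34, SE, adjusted p 0.986). Chosen after their values had been seen, Car9 (carbonic anhydrase 9) had a log2 fold change of 0.32 (adjusted p = 0.369), Bnip3 (a mitophagy receptor) -0.20 (adjusted p = 0.284), Pdk1 (a kinase of pyruvate dehydrogenase) -0.05 (adjusted p = 0.768) and Slc2a1 (the glucose transporter GLUT1) 0.08 (adjusted p = 0.623). The groups of Car9, Bnip3, Pdk1 and Slc2a1 overlapped. Among the 13 target genes whose groups did not overlap, 9 were higher and 4 lower in si-GPD1L. Of the higher ones, also picked after their values had been seen, Loxl2 was at 0.25 (adjusted p = 0.101) and P4ha1 at 0.21 (adjusted p = 0.158). Angptl4, whose fitted log2 fold change of 1.03 was the largest of the list, had under 21 normalized counts in every library and an adjusted p of 0.312. Tpi1 (triosephosphate isomerase), at no more than 42.5 normalized counts, has near-identical copies and is uncertain.

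**Figure D5:**
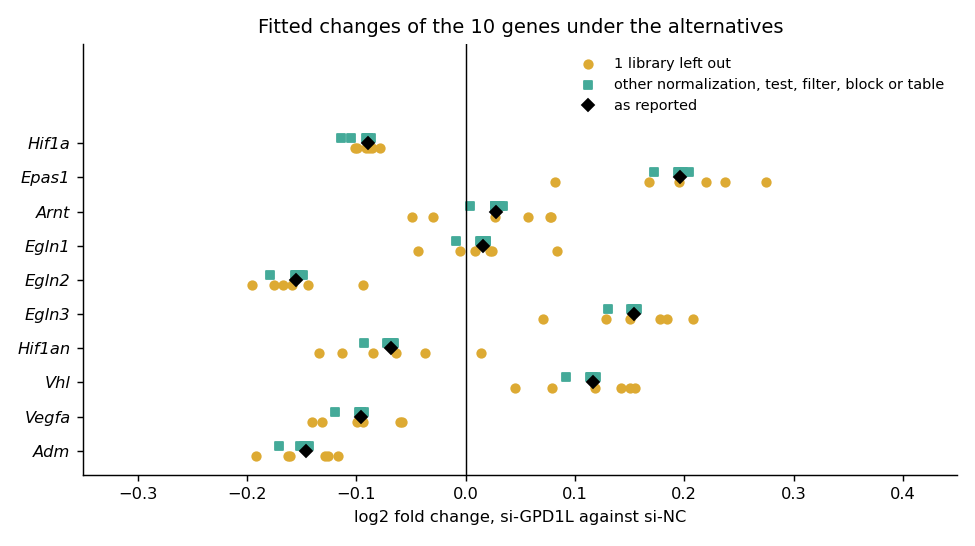
Fitted log2 fold changes (horizontal axis) of the 10 genes as reported (black diamonds), under other normalizations, tests, filters, the replicate block or the transcript table (green squares), and with 1 library left out (yellow circles). Arnt, Egln1 and Hif1an have points on both sides of 0, while Epas1 extends from 0.08 to 0.27 and the values of Hif1a stay between -0.11 and -0.08.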

How the data were processed

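Poly(A) RNA was sequenced in 3 si-NC and 3 si-GPD1L libraries of rat atrial fibroblasts, grouped by the genotype label and numbered by the sample title. The deposited counts of the authors cover 40154 genes and 55760 transcripts and are whole numbers without normalization, and the deposited TPM values of the same genes are counts divided by gene length and scaled to 1 sum. The submitters' processing notes name bcl2fastq, HISAT2 2.1.0, HTSeq 0.12.4 and the build rn6. Whether counting used strand is not given in the sources used here. Gene coordinates are those of the gene table, and promoter windows are RefSeq's on GRCr8, and the 2 builds were not mixed. The deposited tables of the authors' own comparison (fold changes, p-values and q-values) and of term enrichment were not used.

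From the counts, 14852 genes were retained (filterByExpr) and scaled with TMM factors in edgeR 4.0.16 under R 4.3.3, which then compared si-GPD1L with si-NC by the quasi-likelihood F test with Benjamini-Hochberg adjustment over all genes tested. Normalized counts are counts scaled to the mean effective library size, and 95% intervals come from the fitted coefficient and its SE. Transcript counts were fitted in the same way. The test was first tested on simulated data. The biological coefficient of variation was 0.0894, which with 3 libraries a group limits the changes that can be called.

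The 10 genes and all gene lists were chosen with earlier results of these data known, and Elob and Eloc were matched as Tceb2 and Tceb1. The genes named are Gpd1l, the 10 genes, Ankrd37, each listed pathway or target gene past the threshold, the 3 most abundant of each of those lists, the 3 genes most like Hif1a and Epas1, and the most abundant marker of each list. A target gene that met this rule is not reported here. Other genes were named after their values had been seen, or because they were not tested. Among them are the called markers, Hsp90aa1, Angptl4 and Tpi1, for which this is not said where they appear. Of 25 interferon-stimulated genes listed, Xaf1 was not analysed here. Alternatives were DESeq2 size factors and upper-quartile normalization, the DESeq2 1.42.0 Wald test, edgeR's exact test, a filter of 1 count in total or of 10 counts in every library, a replicate block, leaving out each of the 6 libraries, and transcript counts summed per gene.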

Additional observations from a re-analysis of the deposited data

How the results depend on the processing

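The count of 0 of the 10 genes, and of 0 of their 34 transcripts, was the same under all alternatives run. Of 140 fitted changes of the 10 genes under 14 alternatives, 134 kept their direction. With upper-quartile normalization Egln1 was at -0.0087. With 1 library left out, Arnt ran from -0.049 to 0.078, Egln1 from -0.044 to 0.084, Hif1an from -0.13 to 0.014, Os9 from -0.012 to 0.066 and Ankrd37 from -0.23 to 0.27 on the log2 scale. Cxcl12 passed under all 14 alternatives. The genes called, 945 as reported, numbered 1528 with edgeR's exact test, 1929 with the filter of 1 count in total and 623 with summed transcript counts. With 1 library left out they ran from 361 to 1531 (1531 without si-NC replicate 1, 550 without replicate 2 and 1451 without replicate 3, then 366, 361 and 591 without si-GPD1L replicates 1, 2 and 3). Pathway components called, 1 as reported, were 4 with the filter of 1 count and 0 with summed transcript counts, and ran from 0 to 2 with 1 library left out (2 without si-NC replicate 1 or 3). Target genes called, 2 as reported, were 4 with the filter of 1 count and ran from 2 to 5, with 5 without si-NC replicate 1. The cause was not tested.

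No pairing by replicate number was visible, since deviations of libraries with the same number correlated at -0.016, -0.0058 and 0.044. Values near 0 cannot settle whether the samples were paired. With the replicate block 921 genes were called, and 0 of the 10 genes, 1 pathway component and 2 target genes.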
